A study of Saccharomyces cerevisiae with 21 samples.

Results

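The genes described here are 10 genes of budding yeast that encode the enzymes of trehalose and glycogen metabolism. They were taken by identifier from a fixed list, and all 10 were found among the 6692 genes in the table of counts. Trehalose synthesis is represented by TPS1, TPS2, TPS3 and TSL1, trehalose breakdown by NTH1, glycogen synthesis by GSY1, GSY2 and GLC3, and glycogen breakdown by GPH1 and SGA1. Each of the 10 passed the filter on low counts, and they were tested together with all other genes that passed it, 6254 in total.

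Trehalose and glycogen are the storage carbohydrates of yeast. Both are made from glucose phosphates, and cells accumulate them when glucose runs low, growth slows or stress sets in. The genes of both pathways are known targets of the stress-responsive transcription factors Msn2 and Msn4, which bind the stress response element (STRE), and protein kinase A restrains them in glucose medium. Trehalose is made by a complex in which Tps1 makes trehalose 6-phosphate and Tps2 removes the phosphate, with Tps3 and Tsl1 as regulatory subunits, and Nth1 is the neutral trehalase. Gsy1 and Gsy2 are glycogen synthases, Glc3 is the branching enzyme and Gph1 is glycogen phosphorylase, whereas Sga1 is a glucoamylase known from sporulating cells.

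The study concerned promoters, and what the remodelling complex RSC (whose ATPase is Sth1) and the DNA-binding factor Rap1 do there. The 21 libraries were made from polyadenylated RNA, as 7 groups of 3 biological replicates each, and held a spike-in of Schizosaccharomyces pombe cells. All strains were MATa haploids derived from BY4741 with his3D1, leu2D0, met15D0 and ura3D0, carried RPB3-3xFLAG::NATMX and were grown exponentially in YPD (rich glucose medium) at 30 °C. WT carried no degron and was left untreated. The other strains carried the plant F-box protein osTIR, driven by the pGPD1 promoter and inserted at LEU2, and an auxin-inducible degron tag (3V5-IAA7), which marked Sth1 in STH1-AID cells, Rap1 in RAP1-AID cells, or both proteins, the last called double degron cells here (STH1-AID RAP1-AID in the labels). They received 500 µM indole-3-acetic acid (IAA), which sends tagged proteins for degradation, or DMSO, its solvent, for 2 h according to the methods of the study. No untagged cells received IAA, so an effect of IAA itself and loss of a protein cannot be told apart.

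A library held between 20901972 and 29090954 S. cerevisiae counts, with 7.10 to 22.2 S. cerevisiae counts for each S. pombe count. Since the degron acts on protein, the tagged genes were checked at the mRNA level for completeness only. The log2 fold change with IAA was 0.10 for STH1 in STH1-AID cells and 0.12 for RAP1 in RAP1-AID cells, and neither was called (edgeR adjusted p = 0.809 and 0.847). MET17, the gene of the met15 marker, had 1 to 16 raw counts in STH1-AID libraries and 2373 to 7502 in the libraries of the other strains, which goes against the met15D0 label shared by all of them. Of the mating-type markers, the 4 MATa genes summed to 718 to 2422 CPM (counts scaled to a common library total) and the 3 MATalpha genes to 0.0422 to 22.2 CPM, the highest in IAA-treated double degron cells. MF(ALPHA)1 and MF(ALPHA)2 were at 0 in some WT libraries. Replicate 1 of WT and replicate 3 of both groups of double degron cells stood apart from their groups in the genes described here, and results that rest on them are also given without them.

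Before the values, the sequence upstream of the genes was examined because the genes of these pathways are known for shared STRE sites. The STRE core AGGGG, on either strand, occurred at least 1 time in the 500 bases before the start codon of all 10 genes, with 2 to 6 matches per gene. Of 5989 genes whose upstream sequence was searched, 34.1% had a match in a window of this length. In the 300 bases next to the start codon, 7 of the 10 genes and 22.2% of all genes had one. The windows of TSL1 (chrXIII:70324-70623, plus strand) and SGA1 (chrIX:177704-178003, plus strand) are shown since the results turn on these genes, with the STRE core in capitals. Sequences and coordinates are from RefSeq R64, read 5′ to 3′ on the strand of the gene and ending at the base before the start codon.
TSL1: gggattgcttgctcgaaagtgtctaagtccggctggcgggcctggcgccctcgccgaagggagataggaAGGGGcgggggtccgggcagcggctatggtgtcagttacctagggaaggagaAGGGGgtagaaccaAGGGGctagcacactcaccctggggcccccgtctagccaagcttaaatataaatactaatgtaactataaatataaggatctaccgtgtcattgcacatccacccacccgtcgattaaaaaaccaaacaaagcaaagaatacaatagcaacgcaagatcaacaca
SGA1: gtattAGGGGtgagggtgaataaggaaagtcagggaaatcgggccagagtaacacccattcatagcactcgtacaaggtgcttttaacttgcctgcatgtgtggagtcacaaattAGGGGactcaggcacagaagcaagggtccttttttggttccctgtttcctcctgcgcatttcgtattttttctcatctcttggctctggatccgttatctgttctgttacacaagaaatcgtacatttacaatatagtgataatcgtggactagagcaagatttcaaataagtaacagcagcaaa

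In GSY1 and GPH1 the matches lay further from the start codon. Shown for each is a stretch around the match farthest from the start codon, for GSY1 467 to 463 bases upstream (chrVI:176844-176868, minus strand) and for GPH1 357 to 353 bases upstream (chrXVI:860939-860963, plus strand). They stand beside a match upstream of TPS3 (chrXIII:793590-793614, minus strand), shown because TPS3 did not rise in any comparison described here. The core stands in capitals, as AGGGG or, on the other strand, CCCCT.
GSY1: ggaatctttcAGGGGcacaatttcc
GPH1: gaaataagtaAGGGGtggataattt
TPS3: tcgcgcggtgCCCCTggaattaatt

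Other short motifs were also counted. A run of 7 A or T bases (AAAAAAA on either strand) occurred in the 500-base window of 4 of 10 genes, against 64.4% of all genes, and CGCG, a core recognised by RSC subunits, in that of 8 of 10, against 42.3%. A Rap1-type core (ACCCANACA on either strand) occurred upstream of TPS3 alone, against 3.11% of all genes, and GCCGCC, the core of the URS1 element of meiotic genes, upstream of none, against 9.55%. In the 300-base window CGCG occurred in 3 of 10 genes, against 28.3% of all genes, and the run of 7 A or T bases in 4 of 10, against 52.5%. A match is a description of the letters and not evidence of binding.

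In untreated WT cells the trehalose genes were more abundant than the glycogen genes, except for TSL1. Per length, TPS1 had the highest level (121 ± 15.5 FPKM, which is CPM per kilobase of gene; SD, n = 3), followed by NTH1 (67.3 ± 3.79 FPKM), TPS3 (43.3 ± 1.84 FPKM) and TPS2 (35.4 ± 3.16 FPKM). GSY2 (17.6 ± 9.30 FPKM) came next, and all its libraries lay below those of TPS2. From there down the libraries of each gene overlapped with those of the next in the order, through TSL1 (10.9 ± 3.70 FPKM), GLC3 (9.22 ± 4.43 FPKM), GPH1 (6.88 ± 7.02 FPKM) and GSY1 (3.20 ± 1.199 FPKM) to SGA1, which had the lowest level (1.27 ± 0.81 FPKM). The spread of the glycogen genes came largely from replicate 1, in which GPH1 reached 40.6 CPM, whereas replicates 2 and 3 had 8.19 and 7.15 CPM.

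**Figure D1:**
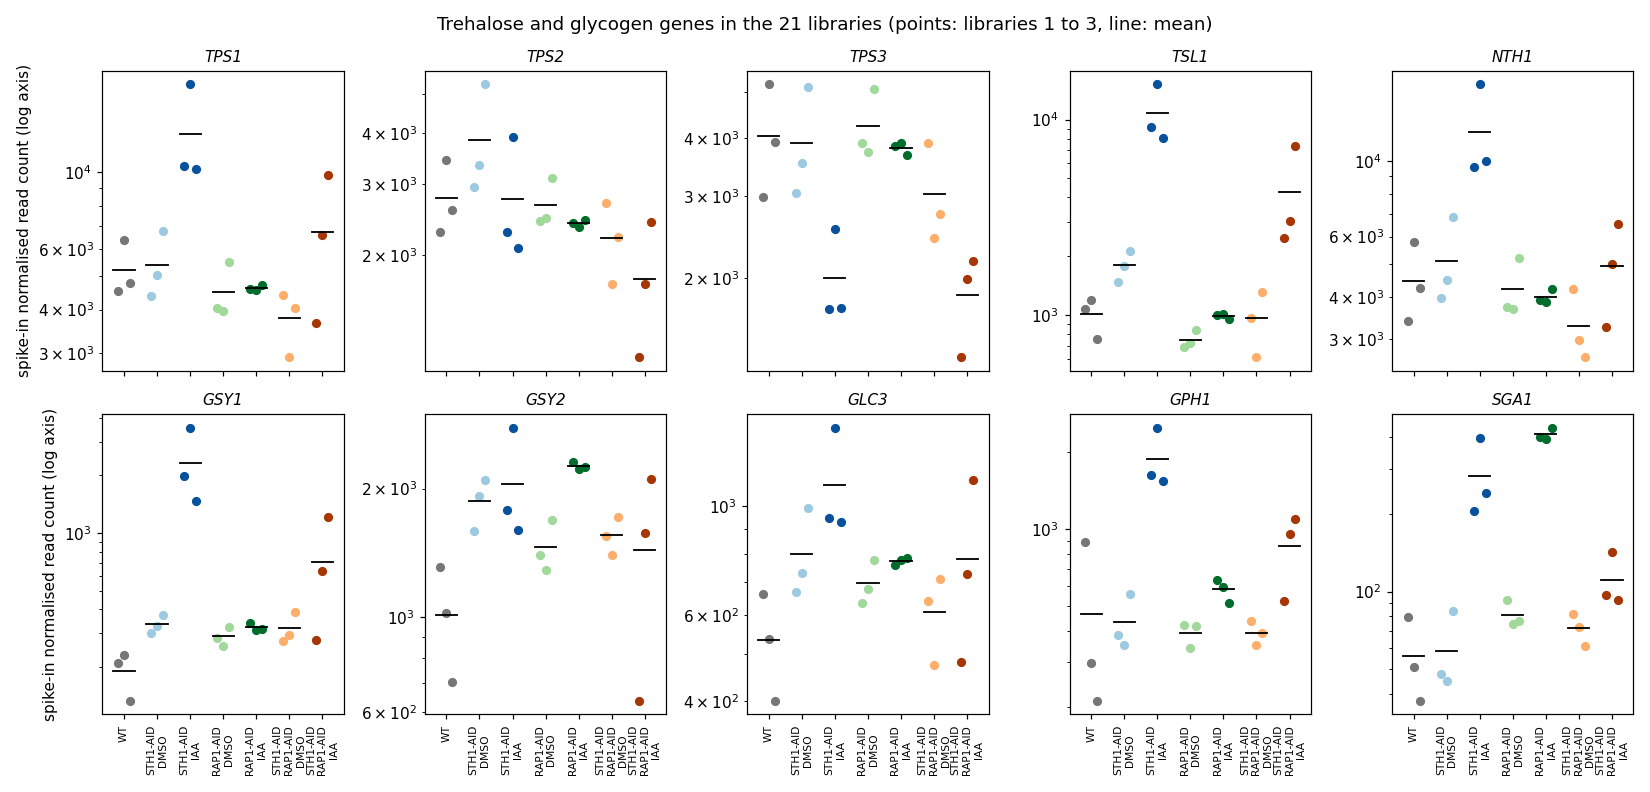
Spike-in normalised read counts (log axes, a separate scale for each gene) of the 10 genes in all 21 libraries, with the 3 libraries of a group as points and their mean as a line. IAA-treated STH1-AID libraries lie above their DMSO libraries for TPS1, TSL1, NTH1, GSY1, GPH1 and SGA1, and IAA-treated RAP1-AID libraries stand out for SGA1, at 395 to 436.

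The question of the first comparison was how loss of Sth1 affects these mRNAs. Of the 10 genes, 6 rose with IAA in STH1-AID cells and none fell, where a gene was called when its edgeR adjusted p was under 0.05 and its fold change exceeded 1 on the log2 scale in either direction. At an unadjusted p under 0.05 there was 1 lower gene, TPS3, and TMM, a scaling by the S. cerevisiae genes themselves, called 7 higher and 0 lower. Among all genes 4.69% were called higher and 42.7% lower in this comparison, and under TMM 15.4% in each direction. The median log2 fold change of the 10 genes was 1.25, beside -0.84 over all genes. The genes that rose came from all 4 arms of the pathways: TPS1 and TSL1 of trehalose synthesis, the trehalase NTH1, the glycogen synthase GSY1, and both GPH1 and SGA1 of glycogen breakdown.

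Within the trehalose synthase complex the subunits moved apart. TSL1 (YML100W, chromosome XIII, 70624 to 73920, plus strand), a regulatory subunit, had 1485, 1782 and 2142 normalised counts in DMSO-treated STH1-AID cells and 9189, 15125 and 8005 with IAA. All IAA libraries lay far above the DMSO libraries, and TSL1 rose by 2.58 on the log2 scale (SE 0.33, edgeR adjusted p = 6.84e-14), a 5.98-fold change. TPS1 (YBR126C, chromosome II, 488905 to 490392, minus strand), the synthase subunit, had 4363, 5027 and 6765 normalised counts with DMSO and 10437, 17943 and 10190 with IAA. Here too the groups did not overlap, and TPS1 rose by 1.26 (log2, SE 0.32, edgeR adjusted p = 0.000257).

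TPS2, the phosphatase subunit, and TPS3, the other regulatory subunit and the paralogue of TSL1, did not rise. TPS3 (YMR261C, chromosome XIII, 790205 to 793369, minus strand) had 3050, 3522 and 5129 normalised counts with DMSO and 1718, 2555 and 1723 with IAA. All IAA libraries lay below the DMSO libraries, and the value of -0.96 on the log2 scale (SE 0.31, edgeR adjusted p = 0.00431) stayed just inside the fold limit. TPS2 (YDR074W, chromosome IV, 593893 to 596583, plus strand) had 2949 to 5275 normalised counts with DMSO and 2080 to 3905 with IAA, so the groups overlapped, and its log2 fold change was -0.48 (edgeR adjusted p = 0.166). TMM ignores the spike-in and moved the median of all genes by 0.89 in this comparison. Under TMM the log2 fold change of TPS2 was 0.39 and that of TPS3 was -0.09, neither called, and the trehalose genes TPS1 and TSL1 rose by 2.10 and 3.42.

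NTH1, which breaks trehalose down, moved in the same direction as TPS1. NTH1 (YDR001C, chromosome IV, 450220 to 452475, minus strand) had 3979, 4478 and 6842 normalised counts with DMSO and 9607, 16711 and 9996 with IAA. The groups did not overlap, and it rose by 1.25 (log2, SE 0.32, edgeR adjusted p = 0.000265).

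The glycogen synthase paralogues responded unequally. GSY1 (YFR015C, chromosome VI, 174265 to 176391, minus strand) had 302, 328 and 374 normalised counts with DMSO and 1983, 3544 and 1469 with IAA. It rose by 2.80 (log2, SE 0.32, edgeR adjusted p = 2.28e-16), 6.96-fold, the largest change among the 10 genes in the 3 comparisons of IAA with DMSO. GSY2 (YLR258W, chromosome XII, 660716 to 662833, plus strand), the more abundant synthase mRNA in WT, had 1589 to 2100 normalised counts with DMSO and 1596 to 2777 with IAA. The groups overlapped almost fully, and the log2 fold change was 0.13 (SE 0.30, edgeR adjusted p = 0.721). With IAA both synthases reached similar levels per length, 52.6 ± 17.9 FPKM for GSY1 and 47.0 ± 9.37 FPKM for GSY2 (SD, n = 3 each). GLC3 (YEL011W, chromosome V, 133120 to 135234, plus strand), the branching enzyme, had 670 to 994 normalised counts with DMSO and 929 to 1445 with IAA, and its log2 fold change of 0.47 was not called (edgeR adjusted p = 0.165). Under TMM GLC3 rose by 1.33 and was called, and GSY2 was at 0.96, just inside the fold limit.

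The genes of glycogen breakdown both rose. GPH1 (YPR160W, chromosome XVI, 861306 to 864014, plus strand), the phosphorylase, had 385, 352 and 556 normalised counts with DMSO and 1621, 2493 and 1536 with IAA. It rose by 2.13 (log2, SE 0.31, edgeR adjusted p = 1.30e-10) with no overlap of the groups. The counts of GPH1 can include fragments of YPR160W-A, an annotated gene on the same strand within it. SGA1 (YIL099W, chromosome IX, 178004 to 179653, plus strand), the glucoamylase, had 48, 45 and 84 normalised counts with DMSO and 207, 399 and 244 with IAA, and rose by 2.29 (log2, SE 0.36, edgeR adjusted p = 2.76e-09).

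Summed over the 10 genes, the share of the library rose from 695 to 860 CPM with DMSO to 1823 to 2757 CPM with IAA. Replicate 2 of the IAA-treated STH1-AID cells had the highest normalised count of all 10 genes in its group. Without it TPS1 and NTH1 both had a log2 fold change of 0.94 and were not called, which left 4 genes called, and TPS3 was then called lower, as it was without replicate 1 or replicate 2 of the DMSO-treated cells.

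**Figure D2:**
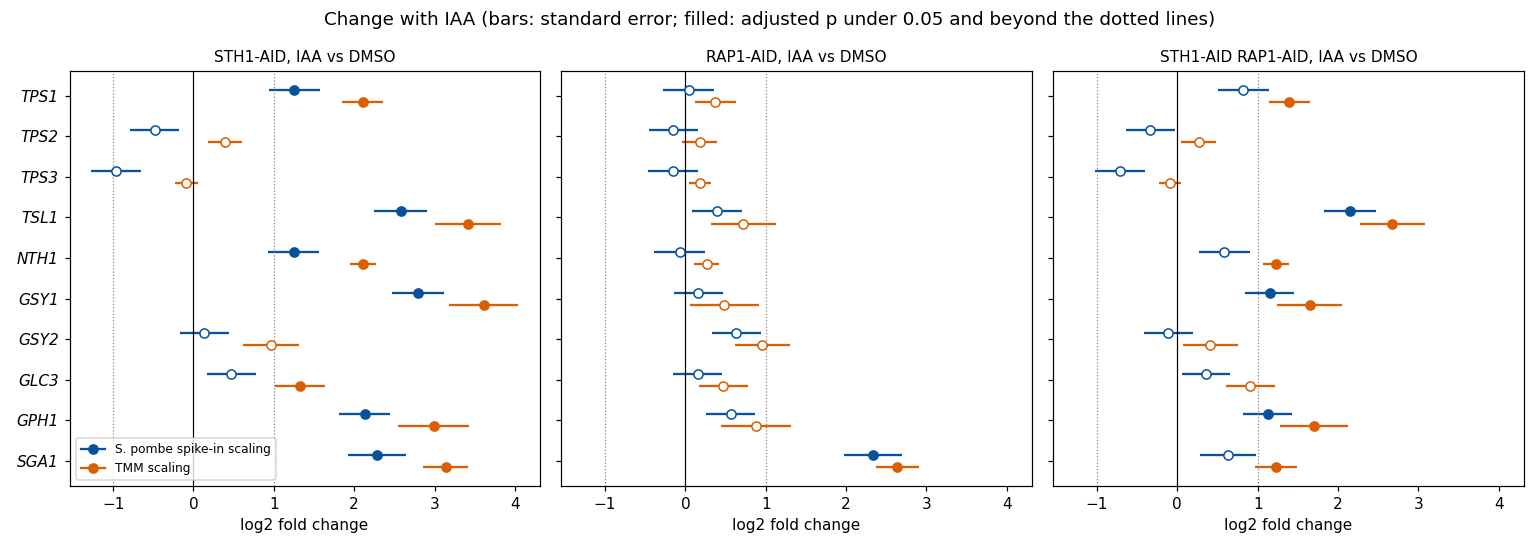
Log2 fold change of IAA against DMSO in the 3 degron strains for the 10 genes, with the standard error as a bar, under S. pombe spike-in scaling and under TMM. Filled points passed both limits of the call. In STH1-AID cells GSY1, TSL1, SGA1 and GPH1 lie above 2, and in RAP1-AID cells SGA1 stands alone at 2.34.

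The second comparison put this question to Rap1. In RAP1-AID cells SGA1 was the only one of the 10 genes that rose with IAA, and none fell, with 0.4% of all genes called higher and 4.09% lower. At an unadjusted p under 0.05 there were 0 lower genes, and TMM also called 0 lower, beside 3.07% of all genes. SGA1 had 92, 75 and 77 normalised counts with DMSO and 402, 395 and 436 with IAA. The 3 IAA libraries lay close together and far above the DMSO libraries, and SGA1 rose by 2.34 (log2, SE 0.36, edgeR adjusted p = 5.54e-09), 5.05-fold. It was called in each fit that left out 1 library, and under TMM, where it rose by 2.64.

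The other glycogen and trehalose genes had log2 fold changes from -0.15 to 0.63 in RAP1-AID cells. GSY2 had 1396, 1292 and 1691 normalised counts with DMSO and 2309, 2225 and 2251 with IAA, which did not overlap, but its log2 fold change of 0.63 was not called (SE 0.30, edgeR adjusted p = 0.495). GPH1 (342 to 420 normalised counts with DMSO, 513 to 631 with IAA) and TSL1 (691 to 844 and 955 to 1020) also had IAA libraries above all DMSO libraries, with log2 fold changes of 0.56 and 0.40 that were not called (edgeR adjusted p = 0.698 and 0.784). In a fit of RAP1-AID cells alone with the replicate as a block, GSY2, GPH1 and TSL1 had values of 0.64, 0.56 and 0.40. Their edgeR adjusted p was then 0.000243, 0.000986 and 0.0278, so there only the fold limit kept them from being called. For TPS1, TPS2, TPS3, NTH1, GSY1 and GLC3 the groups overlapped. The median over the 10 genes was 0.16, beside -0.26 over all genes. Summed over the 10 genes, the share of the library, which is not scaled by the spike-in, was 529 to 539 CPM with DMSO and 777 to 793 CPM with IAA.

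SGA1 belongs to the genes known from sporulation, and the sporulation markers are given beside it for that reason. The 8 markers (IME1, IME2, SPO11, SPO13, SPS4, SPR3, SPS100 and DIT1) summed to 46.0 to 55.4 CPM in DMSO-treated RAP1-AID cells and to 62.6 to 71.4 CPM with IAA, and none of them was called in this comparison. Of all genes 0.4% were called higher and 4.09% lower in RAP1-AID cells. In STH1-AID cells the sum went from 40.6 to 45.2 CPM with DMSO to 82.0 to 83.8 CPM with IAA. There SPS100, a spore wall gene, rose by 2.61 on the log2 scale and IME1, the master regulator of meiosis, fell by 1.58. Under TMM 7 of the 8 markers were called higher and 0 lower in STH1-AID cells, against 15.4% of all genes in each direction. In double degron cells TMM called 3 higher and 0 lower, against 8.65% and 6.57% of all genes. Spike-in scaling called 2 higher and 1 lower there, against 3.49% and 32.6%. In double degron cells the sum was 46.4 to 90.7 CPM with DMSO and 90.01 to 193 CPM with IAA. None of the 8 markers was at 0 in any library. In RNA from whole cultures a change in few cells and a smaller change in many cells cannot be told apart. The part of the sporulation markers in the result for SGA1 was not tested.

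The third comparison asked about loss of both proteins. In double degron cells TSL1, GSY1 and GPH1 rose with IAA and none of the 10 genes fell, with 3.49% of all genes called higher and 32.6% lower. At an unadjusted p under 0.05 TPS3 was the 1 lower gene, and TMM called 0 lower. Same-numbered libraries of this strain were taken as pairs because their deviations from the group means correlated, although the labels state no pairing. With the replicate as a block only TSL1 was called. The block also lowered the calls over all genes, from 218 higher and 2039 lower to 112 and 507. TSL1 had 963, 609 and 1322 normalised counts with DMSO and 2470, 3038 and 7339 with IAA. The groups did not overlap, and TSL1 rose by 2.15 (log2, SE 0.32, edgeR adjusted p = 1.65e-09), or by 2.05 with the block (edgeR adjusted p = 0.00998).

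The calls of GSY1 and GPH1 were less secure in these cells. GSY1 had 273, 294 and 388 normalised counts with DMSO and 278, 635 and 1206 with IAA, so replicate 1 with IAA lay within the range of the DMSO libraries. Its log2 fold change was 1.15 (SE 0.31, edgeR adjusted p = 0.000720), and with the block 0.93 (edgeR adjusted p = 0.232). GPH1 had 435, 353 and 390 normalised counts with DMSO and 523, 957 and 1090 with IAA. The groups did not overlap, and the log2 fold change was 1.13 (SE 0.31, edgeR adjusted p = 0.000858), with the block 1.07 (edgeR adjusted p = 0.168).

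The 3 replicates of these cells spread widely. The summed share of the 10 genes was 529, 624 and 965 CPM with DMSO and 941, 1199 and 2091 CPM with IAA, with replicate 3 the highest in both groups. Without replicate 3 of the IAA-treated cells, and without replicate 3 of both groups, TSL1 alone was called, and in the first of these fits the log2 fold change of GSY1 was 0.52 and that of GPH1 was 0.91. TMM, which moved the median of all genes by 0.68 here, called 6 of the 10 genes higher, adding TPS1, NTH1 and SGA1 with log2 fold changes of 1.40, 1.23 and 1.22, and 6 genes were also called with the block under TMM. Of all genes TMM without the block called 8.65% higher and 6.57% lower.

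The remaining genes stayed below the limits of the call under spike-in scaling. TPS1 had 4420, 2908 and 4030 normalised counts with DMSO and 3654, 6573 and 9839 with IAA, and a log2 fold change of 0.82 (edgeR adjusted p = 0.0218). SGA1 had 82, 73 and 61 normalised counts with DMSO and 97, 143 and 93 with IAA. These groups did not overlap, but the log2 fold change was 0.63 (SE 0.35, edgeR adjusted p = 0.120), well under those in the single degron strains. TPS3 lay lower in all IAA libraries (1354 to 2177 normalised counts, against 2436 to 3896 with DMSO), with a log2 fold change of -0.72 (edgeR adjusted p = 0.0420). The groups overlapped for TPS2, NTH1, GSY2 and GLC3. The median over the 10 genes was 0.61, beside -0.67 over all genes.

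The effects of IAA in different strains were then compared directly. In contrasts that include STH1-AID cells, the tagged protein and the difference in MET17 counts cannot be told apart. For 5 of the 10 genes the effect in RAP1-AID cells was called lower than in STH1-AID cells and for none higher, with 6.27% of all genes called lower and 32.3% higher in this contrast. At an unadjusted p under 0.05 there were 0 higher, and TMM called 5 lower and 0 higher, beside 15% and 17.3% of all genes. GSY1 had the largest difference, -2.64 (log2, SE 0.44, edgeR adjusted p = 8.43e-08), and that of TSL1 was -2.18 (SE 0.44, edgeR adjusted p = 1.23e-05). GPH1 (-1.57, edgeR adjusted p = 0.00148), NTH1 (-1.32, edgeR adjusted p = 0.0113) and TPS1 (-1.22, edgeR adjusted p = 0.0208) followed. SGA1 differed by 0.05 (SE 0.50, edgeR adjusted p = 0.953), so a difference between the strains was not detectable with this error, and under TMM its value was -0.50. When replicate 2 of STH1-AID cells with IAA was left out, 3 genes were called in this contrast.

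**Figure D3:**
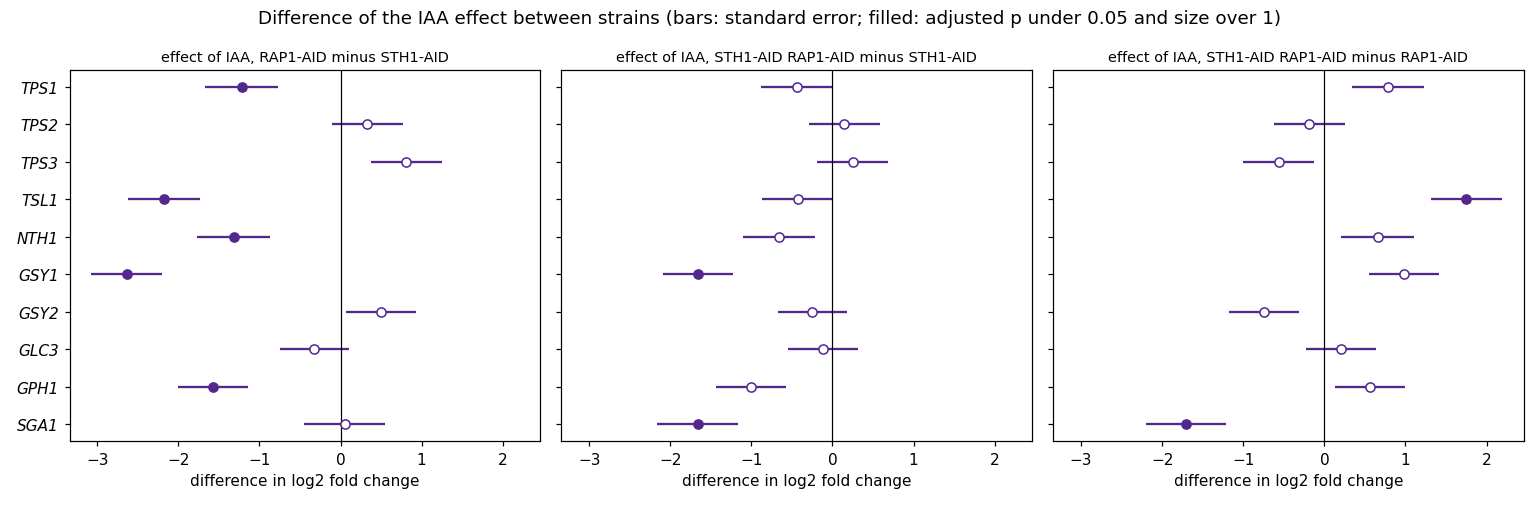
Difference in the log2 fold change with IAA between strains for the 10 genes under spike-in scaling, with the standard error as a bar and filled points for called differences. GSY1, TSL1, GPH1, NTH1 and TPS1 lie below 0 for RAP1-AID minus STH1-AID, and SGA1 lies at -1.66 and -1.71 in both contrasts that include double degron cells.

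SGA1 set the double degron strain apart from both single degron strains in the fit without a block. Its effect of IAA was lower than in RAP1-AID cells by a difference of -1.71 (log2, SE 0.49, edgeR adjusted p = 0.0131), and a block on the replicate left this call in place (-1.73, edgeR adjusted p = 0.0169). It was lost when replicate 2 of RAP1-AID cells with DMSO was left out, and likewise without replicate 1 of IAA-treated double degron cells. Against STH1-AID cells the difference of SGA1 was -1.66 (SE 0.50, edgeR adjusted p = 0.0367), and it was not called with the block (-1.66, edgeR adjusted p = 0.282). This call was also lost in 7 of the 12 fits that left out 1 library. Over all genes the block left 13 positive and 19 negative calls against STH1-AID cells, where there were 80 of each without it. These 2 contrasts share the double degron libraries.

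For the other genes the double degron strain differed from a single strain at GSY1 and TSL1. GSY1 rose less than in STH1-AID cells, by a difference of -1.65 (log2, SE 0.43, edgeR adjusted p = 0.0111), which was not called with the block (-1.77, edgeR adjusted p = 0.186). This call was also lost in 2 of the 12 fits that left out 1 library. TSL1 rose more than in RAP1-AID cells, by a difference of 1.75 (SE 0.44, edgeR adjusted p = 0.00412), which was called with the block (1.65, edgeR adjusted p = 0.0283) but not without replicate 3 of IAA-treated double degron cells. Against STH1-AID cells its difference was -0.43 (SE 0.44, edgeR adjusted p = 0.725). In all, the contrast with STH1-AID cells called 2 of the 10 genes negative and 0 positive (1.28% of all genes in each direction), and that with RAP1-AID cells called 1 positive and 1 negative (1.5% and 9.79% of all genes). Against STH1-AID cells 0 of the 10 were positive at an unadjusted p under 0.05. TMM also called 0 positive and 2 negative, beside 2.96% and 5.85% of all genes.

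DMSO-treated cells of each degron strain were compared with WT, which asks what the tags, osTIR and DMSO do together. Any other difference between the strains, such as that of STH1-AID cells in MET17 counts, cannot be told apart from these. None of the 10 genes was called by edgeR in either direction in any of the 3 strains. The share of all genes called higher and lower was 1.04% and 0.352% for STH1-AID, then 11.9% and 0.895% for RAP1-AID, and 5.21% and 1.71% for double degron cells. At an unadjusted p under 0.05 there were 3, 0 and 2 of the 10 genes, all higher. TMM also called none, with 0, 6 and 2 at an unadjusted p under 0.05, all lower. Of all genes TMM called 1.2%, 4.59% and 6.33% higher and 0.56%, 2.48% and 1.81% lower, in the same order of strains. At such shares few calls among 10 genes would be seen in any case. In RAP1-AID cells TMM gave TPS1, TPS2, TPS3 and NTH1 log2 fold changes of -0.77, -0.59, -0.46 and -0.62, against -0.22, -0.05, 0.07 and -0.09 with the spike-in. In double degron cells TMM gave TPS3 and NTH1 -0.36 and -0.41. These TMM values had an edgeR adjusted p under 0.05 but stayed inside the fold limit. With the spike-in, GSY2 in STH1-AID cells had the lowest unadjusted p of these tests. It had 1310, 1023 and 703 normalised counts in WT and 1589, 1923 and 2100 in DMSO-treated STH1-AID cells, and its log2 fold change was 0.89 (SE 0.31, edgeR adjusted p = 0.180). GSY1 had 209, 232 and 133 normalised counts in WT and 302, 328 and 374 in these cells, with a log2 fold change of 0.81 (edgeR adjusted p = 0.339), and TSL1 had 0.83 (edgeR adjusted p = 0.288). GPH1 had 889, 298 and 213 normalised counts in WT, and its log2 fold change in STH1-AID cells went from -0.12 to 0.75 without replicate 1 of WT.

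The other genes of the pathways were examined next. In STH1-AID cells 0 of 8 further enzymes rose and 2 fell with IAA, beside 4.69% and 42.7% of all genes, with a median log2 fold change of -0.36 beside -0.84 over all genes. The genes that fell were NTH2, the paralogue of NTH1, with a log2 fold change of -1.48 (edgeR adjusted p = 5.76e-06) and PGM1, a phosphoglucomutase that supplies glucose 1-phosphate, with -2.24 (edgeR adjusted p = 1.60e-10). PGM1 had 6790, 7112 and 12519 normalised counts with DMSO and 1552, 2060 and 1994 with IAA, with no overlap. It also fell in double degron cells (log2 fold change -1.36, edgeR adjusted p = 0.000138), and under TMM it was called lower in STH1-AID cells only. TMM called 1 of the 8 higher and 1 lower in STH1-AID cells, beside 15.4% of all genes in each direction, with a median of 0.53 beside 0.05 over all genes. The higher one was PGM2, the other phosphoglucomutase (log2 fold change 1.34, edgeR adjusted p = 3.71e-06). None of the 8 was called in RAP1-AID cells, where 1 had an unadjusted p under 0.05 by edgeR and TMM also called 0. Of all genes 0.4% were called higher and 4.09% lower there, and under TMM 0.991% and 3.07%.

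Among 14 regulators of the enzymes, 1 rose and 5 fell in STH1-AID cells, beside 4.69% and 42.7% of all genes, and 1 rose and 2 fell in double degron cells, beside 3.49% and 32.6%, so their falls were no more frequent than those of all genes. None was called in RAP1-AID cells, beside 0.4% of all genes called higher and 4.09% lower. There 1 had an unadjusted p under 0.05 by edgeR, and TMM also called 0, beside 0.991% and 3.07%. GLC7, the phosphatase that activates glycogen synthase, had 6771, 7460 and 13440 normalised counts with DMSO and 1758, 2666 and 2565 with IAA in STH1-AID cells, and fell by 1.99 on the log2 scale (edgeR adjusted p = 1.16e-08). GAC1, which targets Glc7 to glycogen, was the gene that rose, from 20 to 26 raw counts with DMSO to 75 to 96 with IAA (log2 fold change 1.41, edgeR adjusted p = 0.00204). PCL6, PCL7 and PCL8, cyclins of the kinase Pho85, and PIG2, another targeting subunit of Glc7, fell by 1.54, 1.70, 1.14 and 1.11 in STH1-AID cells. In double degron cells GAC1 rose by 1.11, and GLC7 and PCL10, a Pho85 cyclin, fell by 1.13 and 1.24. Under TMM 4 of the 14 were called higher and 1 lower in STH1-AID cells, the latter being GLC7, and in double degron cells 2 were called higher and 0 lower. TMM called 15.4% of all genes in each direction in STH1-AID cells, and 8.65% higher and 6.57% lower in double degron cells. None of 11 transcription and signalling regulators, among them MSN2, MSN4 and the subunits of protein kinase A, was called by edgeR in any of the 3 strains, with 4, 0 and 2 at an unadjusted p under 0.05 in STH1-AID, RAP1-AID and double degron cells. Of all genes 4.69%, 0.4% and 3.49% were called higher and 42.7%, 4.09% and 32.6% lower in these strains. TMM called 2, 0 and 0 of the 11 higher, beside 15.4%, 0.991% and 8.65% of all genes. It called 0 lower in each strain, beside 15.4%, 3.07% and 6.57%.

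The gene upstream of each member was looked at as a further readout, and the 2 neighbours described in detail were chosen after their values were seen. The other neighbours tested were not called with the spike-in in any of the 3 strains, and that of GPH1 was not tested. Under TMM MEO1, SNF11, YLR257W and UBC8 were also called higher in STH1-AID cells, where 15.4% of all genes were. They lie upstream of TPS1, TPS2, GSY2 and GLC3, of which TPS2 and GSY2 were not called under either scaling. XBP1, a stress-induced repressor gene, lies head-to-head with SGA1, 753 bases away. It had 100, 93.8 and 92.7 normalised counts with DMSO and 523, 1306 and 468 with IAA in STH1-AID cells, and rose by 3.00 (log2, edgeR adjusted p = 1.23e-15). In RAP1-AID cells, where SGA1 rose 5.05-fold, XBP1 had 91.3, 74.6 and 119 normalised counts with DMSO and 163, 165 and 150 with IAA, a log2 fold change of 0.75 that was not called (edgeR adjusted p = 0.391). In double degron cells the log2 fold change of XBP1 was -0.17 (edgeR adjusted p = 0.688). YML100W-A, a small gene, lies in tandem upstream of TSL1, 312 bases away. It rose with TSL1 in STH1-AID cells (log2 fold change 2.06, edgeR adjusted p = 4.01e-07) and in double degron cells (2.24, edgeR adjusted p = 3.27e-07) and not in RAP1-AID cells (0.10, edgeR adjusted p = 0.8996). In raw counts it went from 35 to 48 with DMSO to 248 to 306 with IAA in STH1-AID cells.

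**Figure D4:**
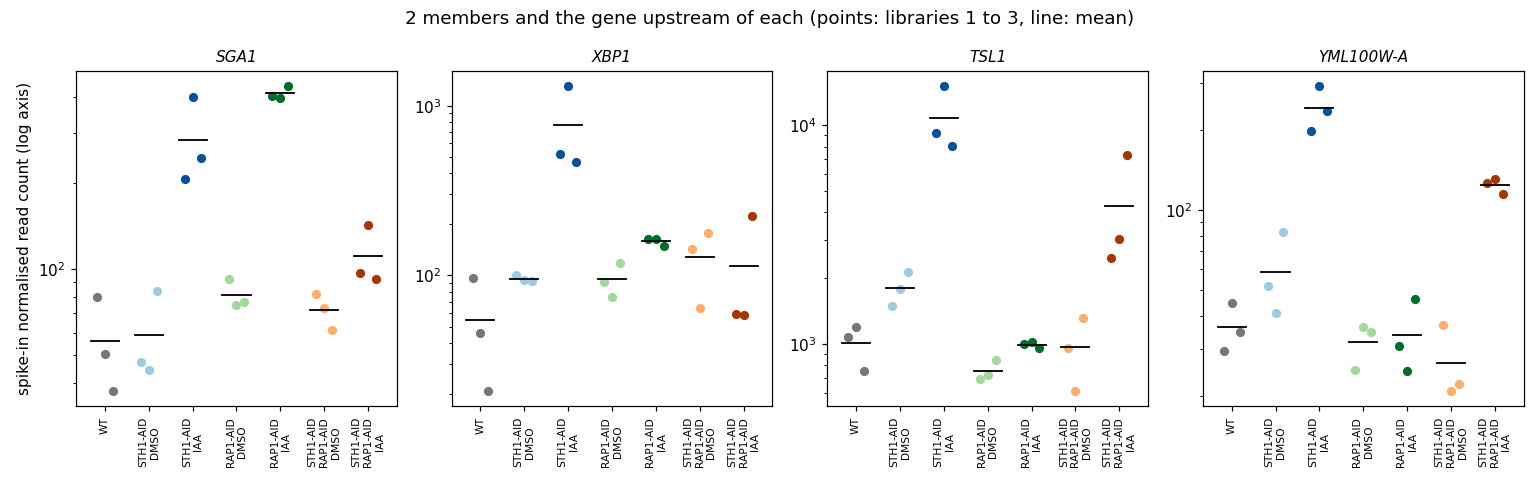
Spike-in normalised read counts (log axes, a separate scale for each gene) of SGA1 and XBP1, which lie head-to-head, and of TSL1 and YML100W-A, which lie in tandem, in all 21 libraries, with points for libraries and a line for the group mean. XBP1 reaches 468 to 1306 in IAA-treated STH1-AID cells and 150 to 165 in IAA-treated RAP1-AID cells, whereas SGA1 reaches 207 to 399 and 395 to 436.

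Across the 21 libraries the profiles of most of the genes were alike, as a description of log2 CPM under TMM, in which libraries of a group share their condition. Pearson's r was 0.98 between TPS1 and NTH1, 0.98 between TPS1 and TSL1 and 0.96 between TSL1 and GSY1. TPS3 stood apart from the other genes, with r from -0.10 (with SGA1) to 0.63 (with TPS2), and its r with the mean profile of the 10 genes was 0.32. SGA1 had r of 0.70 with that mean, and the other 8 genes 0.85 to 0.97.

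**Figure D5:**
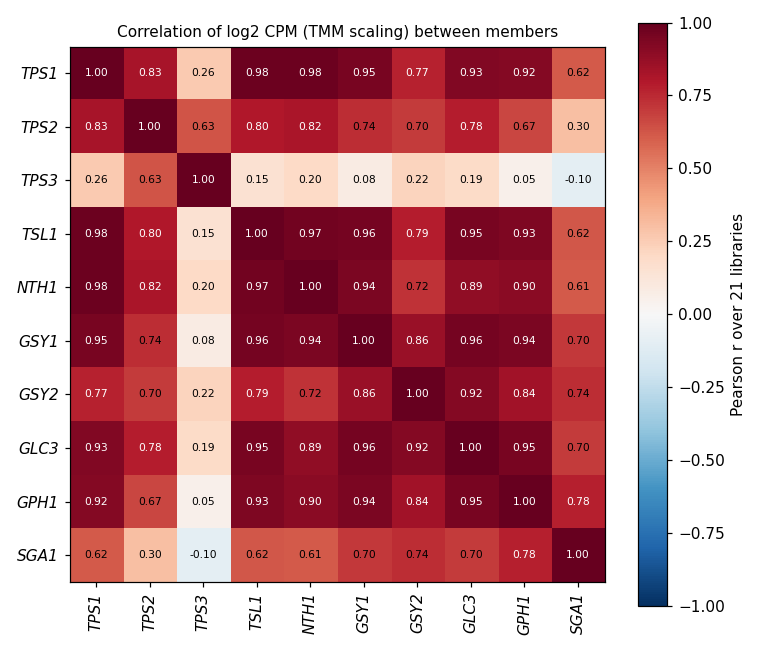
Pearson's r between the 10 genes over the 21 libraries, from log2 CPM under TMM. TPS1, TSL1, NTH1, GSY1, GLC3 and GPH1 form a block with r of 0.89 or more, SGA1 is looser and TPS3 is the least alike.

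The genes outside the list closest to the mean profile were SDS24 (r = 0.98), RGI1 (r = 0.97) and GGA1 (r = 0.97), over 21 libraries. The closest gene was GLK1, a glucokinase, for TPS1 (r = 0.99), YAP1801 for TSL1 (r = 0.99), YTA7 for NTH1 (r = 0.99), EDC2 for GSY1 (r = 0.98) and YGP1 for GPH1 (r = 0.97). For TPS2 it was ATG26 and for GLC3 HER1 (r = 0.96 each), for SGA1 ATG27 (r = 0.93), for GSY2 RGI1 (r = 0.92) and for TPS3 CMP2, a catalytic subunit of calcineurin (r = 0.90).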

How the data were processed

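For each species the authors deposited a table of raw counts, the number of fragments of every protein-coding gene in the 21 libraries, without normalisation. Per the labels and the study's methods, adaptors were trimmed with cutadapt 1.9.1, reads were mapped with BWA 0.5.9-r16 to each genome and fragments were counted by strand with featureCounts (Subread 1.5.1) from unique, unspliced alignments. Reads shared by paralogues (GSY1 and GSY2, TPS3 and TSL1, NTH1 and NTH2) were thus discarded, fragments over exon junctions (as in GLC7, which has an intron) were lost, and a fragment over 2 genes on 1 strand was counted for both. Sequencing batches per library are not given in the sources used here.

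The 10 genes and the other lists were chosen with earlier results of these data known. Named were all 10 genes, other pathway genes called in at least 1 comparison of IAA with DMSO, and the genes closest in profile. Genes were filtered with filterByExpr of edgeR 4.0.16 (R 4.3.3), which kept 6254 of 6692. Library sizes were scaled by size factors computed on the S. pombe genes by median of ratios, which is how the authors scaled their fits, and all 21 libraries entered 1 quasi-likelihood fit with 1 coefficient per group. P-values were adjusted by Benjamini-Hochberg over all genes tested. Dividing the raw counts by the size factor gave normalised counts, FPKM were computed from CPM and gene length, and the SE is the log2 fold change over the root of its F value. Alternatives were TMM, DESeq2 1.42.0, no filter, adjusted p alone, fits of single strains, a replicate block and leaving out each library. The fits were tested on simulated data. Every replicate pair differed by more than counting noise (chi-square over its degrees of freedom 2.89 to 94.0).

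Same-numbered DMSO and IAA libraries were taken as paired where the correlation of their deviations from the group means was over 0.1 in each of the 3 pairs. This held for double degron cells only (0.52, 0.70 and 0.66). Coordinates are R64-1-1, with starts counted from 1. Symbols were matched for 6008 genes in the RefSeq annotation, and upstream windows were read from its genome with Python.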

Additional observations from a re-analysis of the deposited data

Results flagged for a closer look

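The effect of IAA differed between strains by the test of the difference itself (edgeR interaction contrast, log2 scale) for 6 of the 10 genes, counted over 3 contrasts. Of all genes, 6.27% were called lower and 32.3% higher for RAP1-AID minus STH1-AID cells. The shares were 1.28% in each direction for double degron minus STH1-AID cells. They were 9.79% lower and 1.5% higher for double degron minus RAP1-AID cells. For RAP1-AID minus STH1-AID cells the differences were -1.22 for TPS1 (edgeR adjusted p = 0.0208), -2.18 for TSL1 (adjusted p = 1.23e-05), -1.32 for NTH1 (adjusted p = 0.0113), -2.64 for GSY1 (adjusted p = 8.43e-08) and -1.57 for GPH1 (adjusted p = 0.00148). For double degron minus STH1-AID cells they were -1.65 for GSY1 (adjusted p = 0.0111) and -1.66 for SGA1 (adjusted p = 0.0367), neither of which was called with the replicate block. For double degron minus RAP1-AID cells they were 1.75 for TSL1 (adjusted p = 0.00412) and -1.71 for SGA1 (adjusted p = 0.0131), both of which were.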

How the results depend on the processing

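The number of the 10 genes called higher with IAA in double degron cells was 3, and it became 6 under TMM, 6 with DESeq2 and its own size factors, 6 with the replicate block under TMM, 1 with the block alone and 1 without replicate 3 of both groups, an alternative chosen after seeing the data. Over all genes the number was 218, and in these settings, in the same order, 541, 553, 505, 112 and 165. Leaving out single libraries gave 1 to 4 of the 10 genes. In STH1-AID cells the number called higher ran from 4 to 6 when single libraries were left out and the number called lower from 0 to 1, and with adjusted p alone 1 gene, TPS3, was lower in each of these strains. Adjusted p alone called 3467 of all genes lower in STH1-AID cells and 2998 in double degron cells. For RAP1-AID minus STH1-AID cells single libraries gave 3 to 5 negative calls. For double degron minus STH1-AID cells the 2 negative calls became 1 with DESeq2 and S. pombe size factors, 0 in a fit of these groups alone and 0 with the block, and 0 to 2 without single libraries. Negative calls over all genes in this contrast went from 80 to 99, 24 and 19 in the first 3 of these settings. For double degron minus RAP1-AID cells the 1 positive call became 2 under TMM, 3 with DESeq2 and its own size factors and 3 with the block under TMM, and single libraries gave 0 to 2 positive and 0 to 1 negative calls. Positive calls over all genes rose too, from 94 to 369 under TMM, 420 with DESeq2 and its own size factors and 452 with the block under TMM. The cause of these changes was not tested, beyond the shift of all fold changes between spike-in scaling and TMM.

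Small changes with IAA changed sign with the scaling. Under TMM, DESeq2 with its own size factors and the block under TMM, the log2 fold changes were 0.39, 0.38 and 0.30 for TPS2 in STH1-AID cells. The values in RAP1-AID cells were 0.18, 0.13 and 0.11 for both TPS2 and TPS3, and 0.27, 0.22 and 0.20 for NTH1. In double degron cells they were 0.27, 0.30 and 0.21 for TPS2 and 0.41, 0.44 and 0.32 for GSY2. The difference of SGA1 between RAP1-AID and STH1-AID cells was -0.50, -0.53 and -0.47 under the same settings. GPH1 in DMSO-treated STH1-AID cells against WT was 0.13 with the block. When single libraries were left out, signs also changed for GLC3 (-0.012 to 0.61) and GSY2 (-0.49 to 0.24) in double degron cells, GSY2 in STH1-AID cells (-0.14 to 0.29), NTH1 (-0.16 to 0.11) and TPS1 (-0.046 to 0.21) in RAP1-AID cells, GPH1 in STH1-AID cells against WT (-0.47 to 0.75) and the difference of SGA1 (-0.28 to 0.38). None of these was called in the fit reported. With S. pombe scaling 2 of the 3 genes closest to the mean profile were the same, but the closest gene differed for 8 of the 10 genes, and r with the mean profile was 0.50 for TPS2 and -0.10 for TPS3.

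In STH1-AID and RAP1-AID cells the replicate numbers did not meet the rule for pairing (lowest correlations 0.098 and 0.091), although each library correlated best with its own number, and the block left 6 and 1 genes called higher. Over all genes the block called 290 and 38 higher in these strains, against 293 and 25 without it. The median SE was 0.32 in STH1-AID cells under spike-in scaling and 0.096 under TMM. Small changes there, such as 0.47 for GLC3 (edgeR adjusted p = 0.165), were not detectable with the spike-in. TPS3 at -0.96 (edgeR adjusted p = 0.00431) was kept from a call by the fold limit alone. Adjusted p alone called 378 of all genes higher and 3467 lower in STH1-AID cells, against 293 and 2671 with the fold limit.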
